A study of Mus musculus with 3 samples.

Results

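The cathepsin proteases are a family of mainly lysosomal enzymes, and 10 of their genes were followed here: Ctsa, Ctsb, Ctsc, Ctsd, Ctsf, Ctsh, Ctsk, Ctsl, Ctss and Ctsz. They were chosen by family membership with the measured signals of these arrays already known, so all levels and ratios below describe the arrays and carry no test. Matching accessions gave them 15 of 41174 non-control probes and 10 of 18350 named genes. The study asked how C2C12 muscle cells change when multinucleated myotubes are broken into single cells, called cellulates, and then cultured toward a neural fate. One-colour Agilent whole-genome arrays measured RNA from 3 groups, with 1 array per group and 200 ng of total RNA per labelling.

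The first group was untreated C2C12 myoblasts, an established mouse muscle precursor line. The second, the BIO cellulates, came from myotubes. The myotubes had formed over 8 days under 2% horse serum, and AraC at 10 µM from day 2 to day 4 killed dividing cells. They were split with myoseverin, a microtubule-binding compound, for 48 h (20 µM in the series text and 30 µM in the treatment protocol). BIO, an inhibitor of glycogen synthase kinase, followed 24 h later for 2 days, at 2.5 µM in the sample labels and 10 µM in the series text. The third group, the neurogenic cellulates, additionally received 250 nM reversine for 48 h, all-trans retinoic acid at 1.5 µM, and DMEM/F12 medium supplemented with N2, over 7 days. Neither intact myotubes nor cellulates lacking BIO were analysed here, and the effects of differentiation, AraC, myoseverin and BIO therefore cannot be told apart in the first comparison. The same holds in the second for medium, reversine, retinoic acid and time, which cannot be told apart. The number of cultures behind each array was not given in the sources used here.

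Cathepsins are made as inactive precursors, carried to the lysosome largely by mannose 6-phosphate receptors, and activated by cleavage in its acid interior. Most are cysteine proteases of the papain fold, whereas cathepsin D is an aspartic protease and cathepsin A a serine carboxypeptidase. Cystatins inhibit the cysteine members, and transcription factors of the TFEB family bind an E-box with the core CACGTG upstream of many lysosomal genes. In muscle these enzymes degrade proteins delivered by autophagy, and cathepsin L is a known transcript of wasting muscle.

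Signals are background-corrected intensities as the scanner software wrote them. For ratios, each array's log2 signal was taken relative to the log2 of that array's 75th percentile signal, with control spots left out. The percentile stood at 181 in myoblasts, 115 in BIO cellulates and 156 in neurogenic cellulates. A probe counts as measured on an array where the software marked it well above background. Where a comparison had it measured on 1 of its 2 arrays, only a lower bound of the fold is given. That bound sets the measured signal against the dim array's lowest detected signal (13.6, 17.3 and 26.2 in the same order), or against the dim probe's own signal if higher. No ratio was formed where it was measured on neither. The share of spots well above background was 50.7%, 46.9% and 45.7%, and no spot was saturated. With no replicate arrays, the only spread available was that between repeated spots of 1 probe. Of 245 probes spotted 10 times, 114 were well above background at every spot on both the myoblast and BIO arrays. Their variance between spots, outliers left out, gave a 95% limit of 1.36-fold for a single-spot ratio of these arrays, assuming normal spread. The limit was 1.27-fold between the cellulate arrays and 1.30-fold between neurogenic cellulates and myoblasts. These limits hold no variation between cultures.

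Of the 15 probes, 6 were measured on all 3 arrays, and they belonged to Ctsa, Ctsb, Ctsd and Ctsf. Another 3, belonging to Ctsl and Ctsz, were measured in neurogenic cellulates only. The Ctsh probe was measured in myoblasts and neurogenic cellulates. The remaining 5 probes were measured nowhere and included all probes of Ctsc, Ctsk and Ctss. Apart from Ctsh, the genes thus formed a set measured throughout, a set measured after neurogenic culture only, and a set below detection. In bulk RNA, fewer cells expressing a gene and less RNA per cell cannot be told apart.

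**Figure D1:**
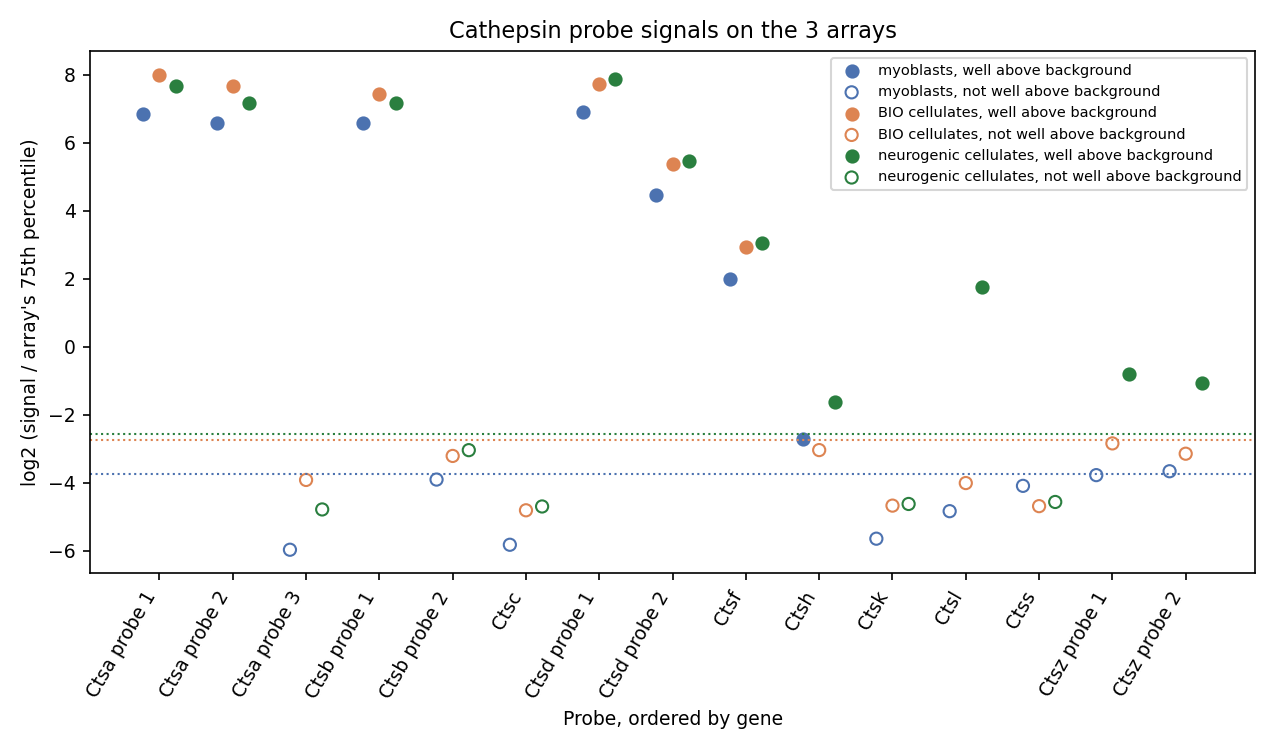
Log2 signal of every cathepsin probe relative to its array's 75th percentile, in 3 colours for the 3 arrays, with filled points for probes well above background, open points for the others, and a dotted line at each array's lowest signal well above background (-3.73, -2.73 and -2.57). The brighter Ctsa probe stands at 6.85, 8.00 and 7.65, whereas the Ctsl and Ctsz probes rise above their dotted line on the neurogenic array alone.

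Ctsa, the serine carboxypeptidase that also protects beta-galactosidase and neuraminidase in a lysosomal complex, was read by a pair of bright probes. The brighter probe, A_51_P408410, gave signals of 20907 in myoblasts, 29462 in BIO cellulates and 31344 in neurogenic cellulates. The other bright probe, A_52_P464315, gave 17165, 23180 and 22440. After scaling, both were lowest in myoblasts and highest in BIO cellulates. The brighter probe was 2.22-fold higher in BIO cellulates than in myoblasts (log2 ratio 1.15) and the other 2.13-fold (1.09). Against BIO cellulates, neurogenic cellulates were 1.27-fold lower by the brighter probe (log2 ratio -0.35), at the limit for single spots, and 1.40-fold lower by the other (-0.49). The scanner software's error on these bright signals was 10.0%. A probe of Ctsa dim on every array read 2.88, 7.58 and 5.63 and gave no ratio.

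Ctsd, the aspartic protease whose loss causes lysosomal storage disease, was likewise read by a pair of measured probes. The brighter gave 21781, 24114 and 36586 in myoblasts, BIO cellulates and neurogenic cellulates, and the other 4013, 4708 and 6804. Both placed myoblasts lowest and the cellulate arrays close together. Its log2 ratio was 0.80 in BIO cellulates against myoblasts by the brighter probe and 0.89 by the other. Neurogenic cellulates exceeded myoblasts 1.95-fold and 1.97-fold by these probes. The step from BIO to neurogenic cellulates was 1.12-fold and 1.07-fold, inside the 1.27-fold limit for single spots.

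Ctsb, an abundant cysteine endopeptidase and carboxypeptidase, gave signals of 17184, 19770 and 22479 in the same order of arrays. It was 1.81-fold higher in BIO cellulates than in myoblasts and 1.52-fold higher in neurogenic cellulates than in myoblasts, with a log2 ratio of -0.25 between the cellulate arrays. Its other probe read 12, 12.4 and 18.9 and was dim throughout, so Ctsb rests on 1 probe. Ctsf, a cysteine protease with a cystatin-like stretch in its precursor, was less bright and gave 724, 869 and 1291. It was 1.89-fold higher in BIO cellulates and 2.07-fold higher in neurogenic cellulates than in myoblasts, and the cellulate arrays differed 1.10-fold. All 4 genes were thus lowest in myoblasts, each beyond the spread between single spots, under the scaling used here but not under median scaling. With median scaling the 4 log2 ratios in BIO cellulates against myoblasts were 0.43 for Ctsa, 0.20 for Ctsf, 0.14 for Ctsb and 0.084 for Ctsd, within the single-spot limit. In neurogenic cellulates against myoblasts they were 0.071 for Ctsa, 0.32 for Ctsf, 0.24 for Ctsd and -0.13 for Ctsb, again within it. The medians used there, 17.1, 17.9 and 24.4, lay near each array's lowest detected signal.

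The same 4 genes lay above the bulk of bright transcripts in both comparisons with myoblasts. Among 2120 genes measured on all arrays with a mean scaled log2 signal of at least 4, the median log2 ratio was -0.12 in BIO cellulates against myoblasts, with quartiles of -0.46 and 0.21. It was -0.45 in neurogenic cellulates against myoblasts, with quartiles of -0.81 and -0.07. Ctsa, Ctsb, Ctsd and Ctsf ranged from 0.80 to 1.15 in the first of these comparisons and from 0.60 to 1.05 in the second. Ctsf itself lies under that signal minimum. Between the cellulate arrays the bright genes had a median of -0.35 with quartiles of -0.54 and -0.14. Ctsa at -0.35 and Ctsb at -0.25 lay between these quartiles, and Ctsd at 0.16 and Ctsf at 0.13 lay above the upper one. Both comparisons share the myoblast array, so their values are not independent of each other.

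Sequence upstream of these genes was examined because the TFEB-family E-box is the best-known shared element of lysosomal genes. RefSeq windows of 300 bases, 250 before and 50 after an annotated start (assembly GRCm38.p6), were found for 8 of the 10 genes, 9 windows in all. Ctsb and Ctsh had no window. The core CACGTG, which reads the same on both strands, stood in 4 of the 9 windows, for Ctsa, Ctsd, Ctsf and Ctsl. Ctsa had another window, at an annotated start further upstream, that held no core. The core stood in 7.15% of all 32851 windows and in 13 of 55 windows (23.6%) of the lysosomal hydrolase and membrane lists described below. The longer palindrome TCACGTGA, which contains that core, stood in 2 of the 9 windows, for Ctsa and Ctsd, against 0.974% of all windows. The core of the interferon-stimulated response element, searched on both strands, stood in 1 window (Ctss) against 3.44% of all windows. The palindrome TTCNNNGAA of interferon-gamma activated sites stood in 1 (Ctsc) against 8.30%. These are matches of letters in a window and do not show binding. The upstream 250 bases are shown for the genes that carry the core and, for contrast, for Ctsz, which does not, each 5′ to 3′ on the gene's strand with CACGTG in capitals. Ctsa lies at chr2:164833523-164833772 on the plus strand, and its core begins -12 bases from the start, with another at base 5 after it, outside the stretch shown. Ctsd lies at chr7:142387828-142388077 on the minus strand, with cores at -245 and -98. Ctsf lies at chr19:4854915-4855164 on the plus strand, with its core at -79. Ctsl lies at chr13:64370521-64370770 on the minus strand, with its core at -236. Ctsz lies at chr2:174439040-174439289 on the minus strand.
Ctsa: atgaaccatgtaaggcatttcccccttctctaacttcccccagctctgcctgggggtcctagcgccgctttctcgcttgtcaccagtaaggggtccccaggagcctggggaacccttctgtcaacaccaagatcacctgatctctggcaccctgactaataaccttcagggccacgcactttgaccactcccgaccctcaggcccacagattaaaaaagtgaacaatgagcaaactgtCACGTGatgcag
Ctsd: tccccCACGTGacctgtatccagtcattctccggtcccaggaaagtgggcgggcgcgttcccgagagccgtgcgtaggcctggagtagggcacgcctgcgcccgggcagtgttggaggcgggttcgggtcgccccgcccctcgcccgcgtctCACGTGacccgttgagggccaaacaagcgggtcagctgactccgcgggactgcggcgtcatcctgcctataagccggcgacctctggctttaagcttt
Ctsf: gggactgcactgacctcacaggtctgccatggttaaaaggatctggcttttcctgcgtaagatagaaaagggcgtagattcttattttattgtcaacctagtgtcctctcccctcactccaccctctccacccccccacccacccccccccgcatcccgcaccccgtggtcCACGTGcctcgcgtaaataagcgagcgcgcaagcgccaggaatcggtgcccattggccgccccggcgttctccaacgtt
Ctsl: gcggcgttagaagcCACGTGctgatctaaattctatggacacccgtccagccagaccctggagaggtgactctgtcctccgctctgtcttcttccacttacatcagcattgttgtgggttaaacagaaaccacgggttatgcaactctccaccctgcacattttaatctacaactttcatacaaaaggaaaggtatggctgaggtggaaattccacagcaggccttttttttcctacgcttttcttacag
Ctsz: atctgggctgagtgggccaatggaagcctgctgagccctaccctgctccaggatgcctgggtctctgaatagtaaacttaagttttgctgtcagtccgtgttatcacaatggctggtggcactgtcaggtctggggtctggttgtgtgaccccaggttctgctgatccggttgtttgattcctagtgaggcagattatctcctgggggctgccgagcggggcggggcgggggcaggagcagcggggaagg

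Ctsl, the broad cysteine endopeptidase named above for muscle wasting, gave signals of 6.32 ± 3.28 (scanner error) in myoblasts, 7.12 ± 4.21 in BIO cellulates and 527 ± 53.0 in neurogenic cellulates. It was well above background on the neurogenic array alone. Under the scaling used here, its level there was at least 22.5-fold that in BIO cellulates and at least 45.0-fold that in myoblasts. With normexp background correction, the log2 bounds fell from 4.49 to 2.58 against BIO cellulates and from 5.49 to 3.12 against myoblasts. Median scaling gave 4.76 against myoblasts. Ctsl has 1 probe here, so no second probe reads the same gene.

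Ctsz, a carboxypeptidase with an integrin-binding propeptide, had a pair of probes that behaved alike. The first read 13.2 in myoblasts, 16.0 in BIO cellulates and 88.6 ± 11.7 in neurogenic cellulates, and the other 14.3, 12.9 and 73.9 ± 9.58. Both were well above background in neurogenic cellulates only. The bounds against BIO cellulates were at least 3.79-fold and at least 3.16-fold, and against myoblasts at least 7.58-fold and at least 6.02-fold. With normexp background correction, the log2 bounds of Ctsz fell from 1.92 to 0.57 against BIO cellulates and from 2.92 to 0.99 against myoblasts, both under 2-fold.

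Ctsh, an aminopeptidase, gave 27.6 ± 3.99 in myoblasts, 13.9 ± 3.98 in BIO cellulates and 50.5 ± 7.48 in neurogenic cellulates, and its BIO signal was not well above background. It was 2.13-fold higher in neurogenic cellulates than in myoblasts, a log2 ratio of 1.09 with a scanner error of 0.30. Against BIO cellulates the neurogenic signal was at least 2.16-fold higher. The BIO signal lay at least 1.01-fold below that of myoblasts, a bound that separates nothing. All 3 Ctsh signals were close to background. With normexp its log2 ratio was 0.47 against myoblasts and its bound 0.29 against BIO cellulates, and median scaling gave 0.36 against myoblasts, all under 2-fold.

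Of 5449 genes not well above background by any probe in myoblasts and BIO cellulates, 345 (6.33%) were well above background in neurogenic cellulates. The cathepsins gave 2 of 5, Ctsl and Ctsz. Ranked by their bound against BIO cellulates, 340 of those genes could be ordered, and Ctsl had the largest bound of all while 54 genes exceeded Ctsz. The corresponding shares for genes seen on 1 array only were 5.66% for BIO cellulates and 15.6% for myoblasts. A related count concerns probes dim on both other arrays although another probe of their gene was measured there. Among these, 30 of 2548 (1.18%) stood at least 4-fold up on the neurogenic array, against 3 of 2301 (0.130%) on the BIO array and 1 of 2658 (0.0376%) on the myoblast array. Whether such probe behaviour has a part in the Ctsl value was not tested.

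**Figure D2:**
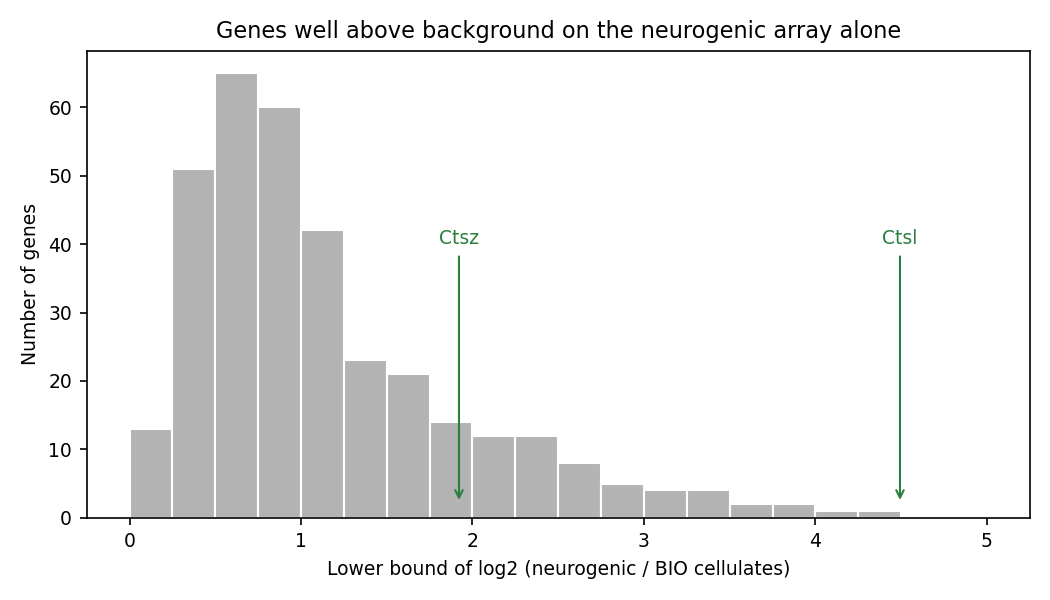
Histogram of the lower bound of the log2 ratio of neurogenic to BIO cellulates for the 340 ranked genes, with the number of genes on the vertical axis and arrows at the cathepsins. Ctsl lies at 4.49, at the far right end, and Ctsz at 1.92 among the upper part of the genes.

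The undetected members were Ctsc, Ctsk and Ctss, which are best known outside muscle: Ctsc activates serine proteases of leukocyte granules, Ctsk degrades bone collagen in osteoclasts, and Ctss cleaves the invariant chain in antigen-presenting cells. Ctsc read 3.19, 4.09 and 5.98 on the myoblast, BIO and neurogenic arrays. Ctsk read 3.61, 4.49 and 6.30. Ctss read 10.6, 4.45 and 6.56. None was well above background. Each gene was read by 1 probe, so the limit at each array's lowest detected signal holds for that probe and not surely for the gene. Ctsa and Ctsb each had a dim probe beside a bright one.

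Counted by gene, with the brightest probe standing for each, the first comparison of the study was BIO cellulates against myoblasts. Ctsa alone of 5 cathepsins compared was at least 2-fold higher, against 11.2% of 12830 genes. None was at least 2-fold lower, against 6.02% of those genes. The cathepsins' median log2 ratio was 0.86 and that of all genes compared 0.00. For genes measured on both arrays the medians were 0.89 and 0.01, and the middle 50% of all such genes ran from -0.39 to 0.45. The shift of the 4 bright cathepsins was thus close to 2-fold without most of them reaching it.

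In neurogenic against BIO cellulates, 3 of 7 cathepsins compared (Ctsh, Ctsl and Ctsz) were at least 2-fold higher, against 4.18% of 12258 genes, and all 3 values are lower bounds. None was at least 2-fold lower, against 1.79%. The median log2 ratio of the cathepsins was 0.16, and of all genes -0.17. For the 4 genes measured on both arrays the median was -0.060, against -0.18 for all such genes.

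In neurogenic cellulates against myoblasts, 4 of 7 cathepsins (Ctsf, Ctsh, Ctsl and Ctsz) were at least 2-fold higher, against 12.1% of 12856 genes. None was at least 2-fold lower, against 10.0%. The values of Ctsl and Ctsz are lower bounds, and both entered the comparison through the neurogenic array alone. The median log2 ratio was 1.05 for the cathepsins and -0.06 for all genes compared. For the 5 cathepsins measured on both arrays the median was 0.97, against -0.15 for all such genes. Since these values guided the choice of the family, the counts are read only as a description beside the shares of all genes.

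**Figure D3:**
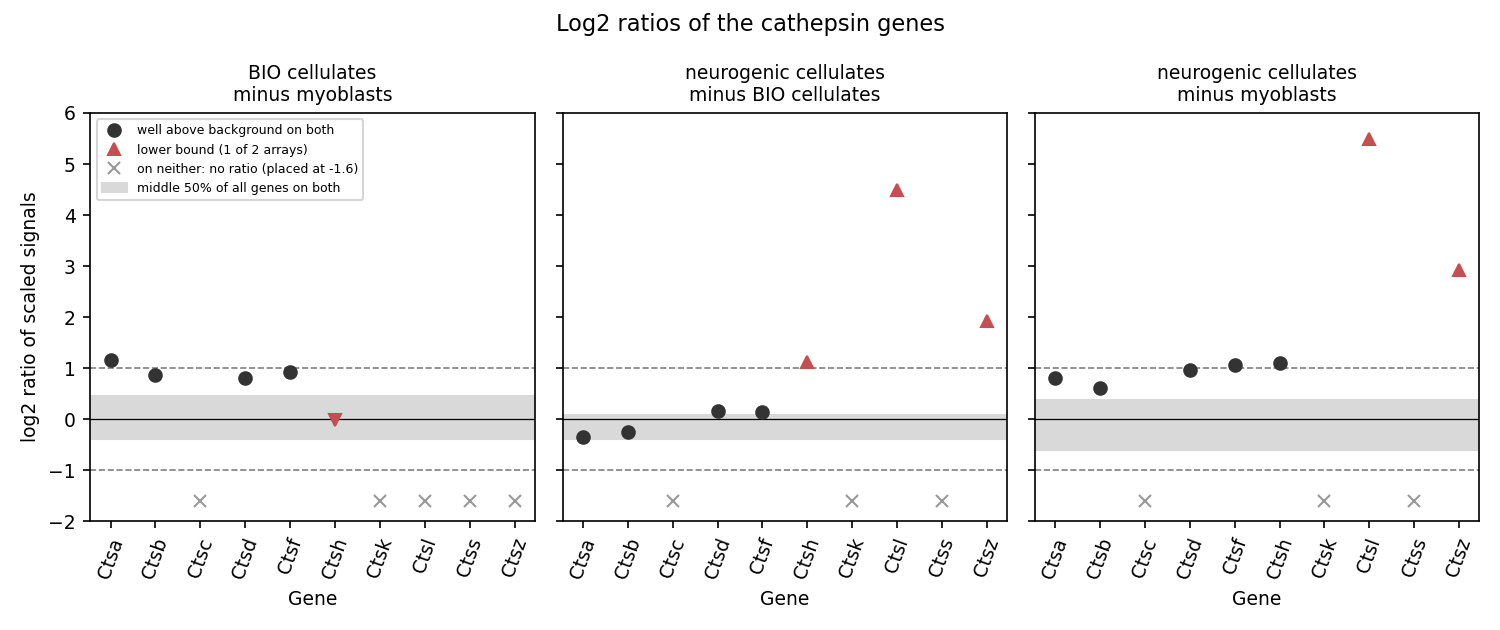
Log2 ratio of each cathepsin gene in the 3 comparisons, with red triangles for lower bounds, grey crosses at the foot of the panel for genes measured on neither array, dashed lines at 2-fold and a grey band for the middle 50% of all genes measured on both arrays. Ctsa, Ctsb, Ctsd and Ctsf lie between 0.80 and 1.15 in BIO cellulates against myoblasts, and Ctsl lies at 4.49 and 5.49 in the neurogenic comparisons.

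The bright cathepsins had shifts near the size of the differences between scalings. With each array scaled to its median, the log2 ratio of all genes in BIO cellulates against myoblasts moved to -0.66, and the shares at least 2-fold higher and lower became 2.88% and 28.9%. In neurogenic cellulates against myoblasts the median moved to -0.79 and the shares to 5.05% and 38.9%. With the 75th percentile over probes measured on all arrays, the higher and lower shares were 14.4% and 4.30% in BIO cellulates against myoblasts, 5.38% and 1.17% between the cellulate arrays, and 17.6% and 5.06% in neurogenic cellulates against myoblasts. With spike-in probes they were 7.83% and 0.685% between the cellulate arrays and 17.1% and 5.40% in the last comparison. With quantile normalisation they were 6.40% and 6.32% in BIO cellulates against myoblasts. In that comparison the shares were 2.35% and 5.74% with normexp and 23.9% and 5.61% without the filter on dim probes. In neurogenic cellulates against myoblasts they were 4.11% and 8.93% with normexp and 27.9% and 8.38% without that filter. Under each of the 9 alternatives run, the cathepsins' median stayed above the median of all genes. The gap was 0.59 to 0.91 in BIO cellulates against myoblasts and 0.85 to 1.37 in neurogenic cellulates against myoblasts. Median scaling, the percentile over probes measured on all arrays, spike-in scaling and the deposited table each add 1 constant per array. They move cathepsins and all genes together, bounds apart, so these settings could hardly change the gap and say nothing on its stability. Ctsb ranged from 0.14 to 1.03 in the first comparison, and Ctsd from 0.08 to 0.97. Ctsl stayed at least 2.58 on the log2 scale against BIO cellulates wherever a value could be formed.

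**Figure D4:**
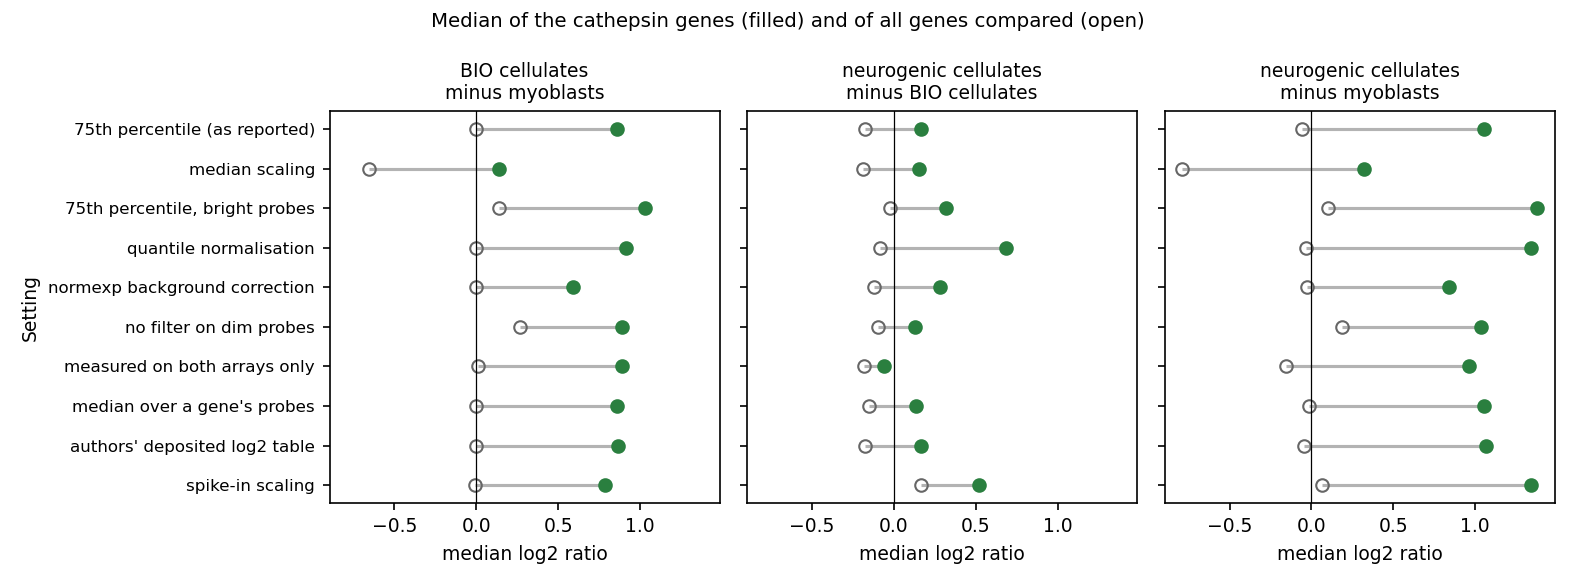
Median log2 ratio of the cathepsins and of all genes compared under the reported setting and the alternatives, with filled points for the cathepsins, open points for all genes and a line joining them, in 1 panel per comparison. The cathepsin median in BIO cellulates against myoblasts runs from 0.14 under median scaling upward, above the all-gene median at every setting plotted.

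The proteins that restrain or process cathepsins were examined next, on a list of 13 genes with 8 compared. In BIO cellulates against myoblasts 1 was at least 2-fold higher and none lower, with a median log2 ratio of 0.58. That gene was Cst3, encoding the secreted inhibitor cystatin C, with signals of 14733, 21643 and 21736 on the 3 arrays and a 2.31-fold difference. In neurogenic against BIO cellulates 1 was higher, none lower, and the median was 0.10. Lgmn encodes legumain, the asparaginyl protease that cleaves cathepsins to their 2-chain forms, and gave 39.5, 44.8 and 183, a 3.02-fold difference between the cellulate arrays. Against myoblasts, neurogenic cellulates had 2 higher and none lower, Lgmn at 5.39-fold and Serpinb1a, a protease inhibitor of neutrophil enzymes, at 2.64-fold, with a median of 0.72. Legumain was thus highest on the array where Ctsl and Ctsz were measured.

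Other cathepsin genes were mostly undetected: of 12 on the array, Ctsg, Ctsm and Ctsw were measured. Ctsw, known from cytotoxic lymphocytes, gave 16.8, 26.5 and 31.7 and was 2.49-fold higher in BIO cellulates than in myoblasts and 2.19-fold higher in neurogenic cellulates. These signals were near background. Ctsg and Ctsm were named after their values were seen. Ctsg, a serine protease of neutrophil granules, gave 71.5, 51.0 and 61.6, with log2 ratios of 0.17 and 0.00 against myoblasts. Ctsm, a placental cathepsin, gave 62.6, 40.1 and 39.7, with log2 ratios of 0.01 and -0.44.

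Among 34 lysosomal hydrolases and activators, 30 were compared in BIO cellulates against myoblasts. Of these 3 (10%, beside 11.2% of all genes) were at least 2-fold higher and none lower, and the median log2 ratio was 0.02. The 3 were Neu1, the neuraminidase that Ctsa protects, at 3.14-fold, Sgsh, a heparan sulfatase, at 2.60-fold, and Gaa, the acid alpha-glucosidase, at 2.37-fold. Neu1 signals were 3120, 6221 and 5582, lowest in myoblasts as for Ctsa. Glb1, the beta-galactosidase of the same complex, was named after its values were seen and went the other way, with log2 ratios of -0.46, -0.08 and -0.54 in the 3 comparisons. In neurogenic against BIO cellulates 1 of 30 was higher and none lower, with a median of -0.01. That gene was Npc2, the soluble cholesterol carrier, at 20.7, 16.8 and 155, a bound of at least 6.65-fold. Against myoblasts, neurogenic cellulates had 7 of 31 higher (22.6%, beside 12.1% of all genes) and 1 lower (3.23%, beside 10.0%), with a median of 0.11. Npc2 (8.75-fold), Lipa, the acid lipase (at least 2.85-fold), and Sgsh (2.56-fold) led the higher genes, and Hyal2, a hyaluronidase, was 2.16-fold lower. Sgsh read 20.6, 33.9 and 45.3 on the 3 arrays, and Lipa read 33.4 in neurogenic cellulates. These signals, and that of Npc2 in myoblasts, were near background.

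Membrane and proton-pump genes make the acid interior that cathepsins need, and 28 were on the array. In BIO cellulates against myoblasts 1 of 25 compared was higher and none lower, with a median of 0.48 (-0.24 with median scaling). It was Atp6v0b, a subunit of the pump's membrane ring, at 3.42-fold. In neurogenic against BIO cellulates 2 of 26 were higher and none lower, with a median of -0.21. Atp6v0e, another membrane subunit, read 16.1, 4.41 and 195, a bound of at least 8.34-fold. Atp6ap2, an accessory protein of the pump, read 7.45, 5.30 and 57.1, a bound of at least 2.44-fold. Against myoblasts, 3 of 26 (11.5%, beside 12.1% of all genes) were higher and none lower, with a median of 0.26. The 3 were Atp6v0e at 14.1-fold, Atp6ap2 at least 4.88-fold, and Atp6v0b at 2.33-fold.

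The sorting list of 10 genes gave, of 9 compared in BIO cellulates against myoblasts, 1 higher (Grn, the progranulin gene, 2.03-fold) and 1 lower (Igf2r, a mannose 6-phosphate receptor, 2.14-fold), with a median of 0.04. No sorting gene passed 2-fold in neurogenic against BIO cellulates, where the median was -0.31. Grn was 2.22-fold higher in neurogenic cellulates than in myoblasts, where the median was -0.27. Of 18 autophagy genes, 1 was higher in BIO cellulates than in myoblasts (Atg7, a conjugation enzyme, at least 4.37-fold, median 0.14) and 1 in neurogenic cellulates (Uvrag, a regulator of vesicle fusion, at least 2.61-fold, median 0.14). None passed 2-fold between the cellulate arrays, where the median was -0.10.

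The 4 transcription factors of the TFEB family, which bind the E-box above, were compared on all 3 arrays. Tfeb itself had a log2 ratio of 0.76 in BIO cellulates against myoblasts, -0.36 between the neurogenic and BIO arrays and 0.41 between neurogenic cellulates and myoblasts. Tfe3 had -0.12, 0.12 and 0.01, and Tfec -0.23, -0.26 and -0.49. Mitf had 0.64, 0.64 and 1.28 and was the only 1 of the 4 past 2-fold, at 2.42-fold in neurogenic cellulates against myoblasts.

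**Figure D5:**
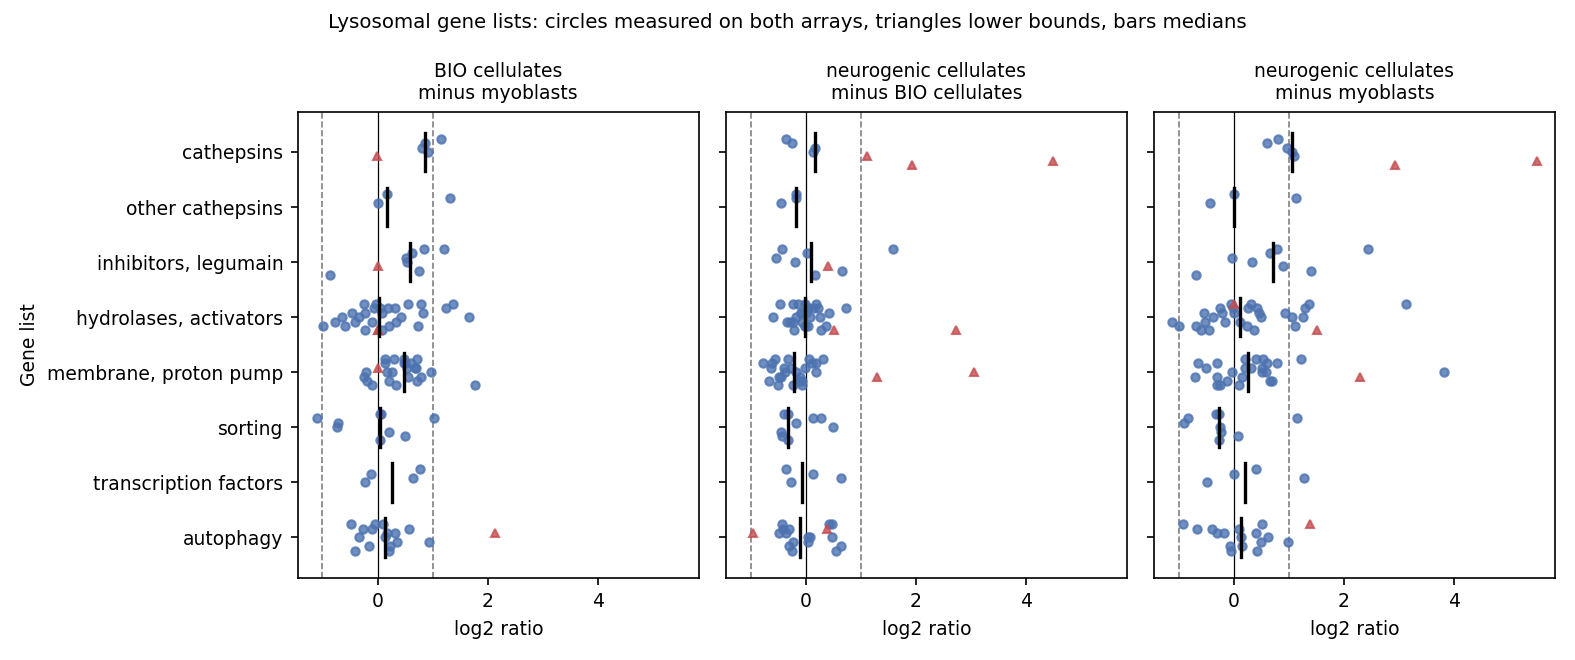
Log2 ratios of the cathepsins and of each lysosomal, inhibitor and autophagy list in the 3 comparisons, 1 point per gene, with triangles for lower bounds and bars for medians. Cathepsin medians are 0.86, 0.16 and 1.05, and the medians of the other lists lie between -0.31 and 0.72. Single genes such as Lgmn, Npc2 and Atp6v0e stand at 2.43, 3.13 and 3.82 in neurogenic cellulates against myoblasts.

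Cell-type markers were set beside these values because cathepsins are abundant in phagocytes. Of 11 macrophage and leukocyte markers, 4, 4 and 5 were well above background in myoblasts, BIO cellulates and neurogenic cellulates, with summed scaled signals of 13.8, 12.8 and 10.9. Ptprc, Adgre1, Itgam, Tyrobp, Lyz2 and Mrc1 were below detection on every array, and Laptm5 was measured in neurogenic cellulates only, at 37.7, at least 2.69-fold above myoblasts and at least 1.61-fold above BIO cellulates. Cd14, which made up much of the sum, read 1429, 573 and 559 and was 2.20-fold lower in neurogenic cellulates than in myoblasts. Over the 5 markers compared, the median log2 ratio was 0.30 in neurogenic cellulates against myoblasts, with 3 above 0, and -0.10 against BIO cellulates, with 1 above 0. Osteoclast markers summed to 4.17, 4.21 and 3.53, with 4 of 7 measured on each array and Acp5, Calcr and Itgb3 below detection. The part of either cell type in the Ctsl and Ctsz values was not tested.

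Of 12 muscle markers, 11 were measured on each array, with sums of 264, 3831 and 2779, and Myf5 was below detection. Their median log2 ratio was 4.91 in BIO cellulates against myoblasts and -0.40 in neurogenic against BIO cellulates. In the first of these comparisons 8 of 11 were at least 2-fold higher and 1, Cdh15, was 2.15-fold lower. Myod1 and Myog had smaller log2 ratios there, 0.36 and 0.31. Most of the muscle transcripts were thus far higher where Ctsa, Ctsb, Ctsd and Ctsf were higher. The part of this in the cathepsin ratios was not tested. Fibroblast markers summed to 2139, 1679 and 1379, with 4 of 7 measured. Among them Dcn, decorin, read 114, 73.8 and 647, 6.47-fold higher in neurogenic than in BIO cellulates. The other 3 of the 4 compared were lower between these arrays. In neurogenic cellulates against myoblasts 2 were above 0 and 2 below, with Col1a1 3.25-fold lower. Of 10 neuron markers, 5, 6 and 5 were measured, with sums of 11.0, 6.78 and 6.50, and Nefl, Syp and Snap25 were below detection on all 3 arrays. Most of these sums came from Tubb3, with signals of 1365, 528 and 598, and Map2, with 501, 75.6 and 186. Nefm, a neurofilament subunit, read 6.08, 16.1 and 53.8, was well above background in neurogenic cellulates only, and was at least 2.30-fold higher there than in BIO cellulates and at least 4.60-fold higher than in myoblasts. The median log2 ratio of the neuron list was -0.26 over 7 markers compared between the cellulate arrays, with 1 at least 2-fold higher and none lower.

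Ctsa had the widest range among cathepsin probes measured throughout, at 1.15 on the scaled log2 scale. Of 10665 genes measured on all arrays, those with the nearest pattern by Euclidean distance over the 3 centred values were 1110032A03Rik (0.0044), Olfr638 (0.026), Pglyrp2 (0.027), Lrrc10 (0.028) and Muc13 (0.031). With 3 points per gene and many genes searched, nearness of this size describes the arrays only.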

How the data were processed

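Groups came from the sample labels, and the members and gene lists were chosen with earlier results of these data known. The deposited spot intensities of array design 014868 (build mm9) were written by Agilent Feature Extraction 10.7.3.1, per the file headers, after background subtraction and detrending; normalization beyond that is not given in the sources used here. The authors' deposited table of log2 values equals the log2 intensity plus 0.00, 0.67 and 0.23 for the 3 arrays and served as an alternative; its medians are 7.42, 7.77 and 7.88, it is not centred by gene, and how its constants were set is unknown.

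Control spots and outlier flags were dropped and repeated spots averaged as log2 values. Of 41174 probes, 26918 were named by matching accessions to the RefSeq gene table of GRCm38.p6, and 14256 stayed unnamed, so other probes of these genes may be among them. Each gene was represented by its brightest probe on average. Text names every member probe, up to 3 genes per list, direction and comparison that passed 2-fold, the TFEB family, and the 5 genes nearest in pattern to the widest-ranging member. Values, those with quantile normalisation included, came from Python 3.11.15 with pandas 2.3.3, and the normexp setting from limma 3.58.1 in R 4.3.3. Normexp used median spot signals with an offset of 50, since mean signals were not in the files used here. The number of arrays, 1 per group, limits precision and allows no test. Alternatives covered scaling, background correction, the dim-probe filter, probe choice and the deposited table.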

Additional observations from a re-analysis of the deposited data

How the results depend on the processing

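The median log2 ratio of the cathepsins in BIO cellulates against myoblasts, 0.86, became 0.14 with median scaling and 0.59 with normexp. In neurogenic against BIO cellulates, 0.16 became 0.69 with quantile normalisation, 0.52 with spike-in scaling and -0.060 over genes measured on both arrays only. In neurogenic cellulates against myoblasts, 1.05 became 0.32 with median scaling, 1.38 with the 75th percentile over probes measured on all arrays, 1.34 with quantile normalisation, 0.84 with normexp and 1.34 with spike-in scaling. The cathepsins at least 2-fold higher in BIO cellulates against myoblasts, 1 as reported, numbered 0 with median scaling, 3 with the percentile over probes measured on all arrays, 2 with quantile normalisation, 0 with normexp and 2 without the dim-probe filter. In neurogenic against BIO cellulates, 3 became 1 with normexp and 0 over genes measured on both arrays. In neurogenic cellulates against myoblasts, 4 became 2 with median scaling, 1 with normexp and 2 over genes measured on both arrays, but 6 with the percentile over probes measured on all arrays, quantile normalisation, spike-in scaling or no dim-probe filter. No cathepsin was at least 2-fold lower under any of the 9 alternatives. Ctsa and Ctsb changed sign between the cellulate arrays, to 0.14 and 0.25 with quantile normalisation and to 0.0099 and 0.11 with spike-in scaling. With median scaling, every other lysosomal, inhibitor and autophagy list had a median below 0 in both comparisons with myoblasts. In BIO cellulates against myoblasts, 0.58 became -0.14 for the inhibitors and 0.48 became -0.24 for membrane and proton pump. In that comparison 0.26 became -0.45 for the TFEB family. For the inhibitors in neurogenic cellulates against myoblasts, 0.72 became -0.01. Median scaling moves every measured ratio of a comparison by the same amount. The medians of all genes fell with these lists, to -0.66 in BIO cellulates and -0.79 in neurogenic cellulates, each against myoblasts. Why the scalings differ was not tested. No paired analysis was possible because each group has 1 array, and no replicate could be left out. With normexp the log2 ratios of neurogenic to BIO cellulates went from 1.11 to 0.29 for Ctsh, 1.92 to 0.57 for Ctsz and 4.49 to 2.58 for Ctsl.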
